A study of Homo sapiens with 6 samples.

Results

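The transcripts of 10 genes of the poly(ADP-ribose) polymerase (PARP) family were examined in UWB1.289 cells: PARP1, PARP2 and PARP3, the tankyrases TNKS and TNKS2, and PARP4, PARP6, PARP8, PARP11 and PARP16. The genes were taken from a list of family members, by their Ensembl identifiers, and all 10 were present among the 63677 genes of the counts table. The list rests on family membership and not on a cut-off in these values, although it was drawn up with earlier results of these data known. All 10 passed the filter on low counts (a sum above 10 over the samples) and were among the 21729 genes tested.

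UWB1.289 is an ovarian carcinoma cell line that the study describes as BRCA1-deficient, although the sample labels give its genotype as WT. The cells had been treated for 24 h with 4 µM Olaparib (3 samples) or with the solvent DMSO (3 samples), and poly(A) RNA was sequenced. The series text gives the Olaparib dose as 10 µM. All samples come from a single cell line, and the study's methods describe the 3 replicates of each condition as independent, so the p values measure the spread between replicates of this line.

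PARP enzymes transfer ADP-ribose from NAD to proteins. PARP1 and PARP2 bind broken DNA and build chains of ADP-ribose that recruit repair factors, and PARP3 acts at breaks by adding single units. The tankyrases recognise their partners through ankyrin repeats and also build chains, whereas PARP6, PARP8, PARP11 and PARP16 add single units. Olaparib occupies the NAD pocket of PARP1 and PARP2, holds these enzymes on DNA, and is a much weaker inhibitor of the tankyrases. A change in transcript level is therefore separate from the inhibition of the enzyme itself.

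Library depth was between 35360458 and 39640775 counts, and mitochondrial genes took 5.68% to 6.11% of them. Olaparib replicate 3 and DMSO replicate 1 deviated alike: across 11997 genes their deviations from the group means had a correlation of 0.48. This is a description over genes that share these libraries. It does not make both the most distant of their groups. By chi-square per degree of freedom between replicates, DMSO replicate 1 was farthest from the others (3.93 and 4.00 against 1.77). Among the Olaparib samples that was replicate 1 (3.69 and 3.26 against 2.25), not replicate 3. The members were therefore also fitted without both. Of the 10 epithelial and Mullerian markers, 9 passed the filter on low counts, and KRT7, KRT8, KRT18, EPCAM and the Mullerian factor PAX8 were abundant. PAX8 was the only one of these markers called, with 12269 ± 216 normalized counts in the Olaparib samples and 11429 ± 324 in the DMSO samples (edgeR adjusted p = 0.0399). WT1 had at most 2 counts in any library. The endothelial marker PECAM1 and the fibroblast marker LUM were at 0 in all samples, and the 5 immune markers summed to 2.91 to 4.08 CPM, counts scaled to library size. The adhesion gene CDH5, also an endothelial marker, had 1526 ± 28.3 normalized counts in the Olaparib samples and 1606 ± 63.6 in the DMSO samples (SD, n = 3 each), so the 4 endothelial markers summed to 44.3 to 48.2 CPM. VWF, of the same list, was called higher, with 67.4 against 41.8 normalized counts (edgeR adjusted p = 0.0106). In bulk RNA fewer cells of a type and less RNA per cell cannot be told apart. BRCA1 transcripts were present, with 802 ± 36.8 normalized counts in the Olaparib samples and 736 ± 6.43 in the DMSO samples (edgeR adjusted p = 0.193).

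The 250 bases before the RefSeq start of PARP1 and of PARP2 are shown because these enzymes are the ones that Olaparib holds on DNA. Their transcripts also lead the family per coding transcript. By the GENCODE positions given further below, both genes start inside these windows. Both come from RefSeq on GRCh38.p14, run 5′ to 3′ on the gene's strand, and have the GC box GGGCGG, on either strand, in capitals.
PARP1, chr1:226408094-226408343, minus strand: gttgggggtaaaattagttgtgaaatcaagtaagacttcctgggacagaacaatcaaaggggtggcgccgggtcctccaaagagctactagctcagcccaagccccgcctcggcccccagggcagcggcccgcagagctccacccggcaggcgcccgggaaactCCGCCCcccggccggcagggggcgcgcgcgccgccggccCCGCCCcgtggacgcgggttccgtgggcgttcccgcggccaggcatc
PARP2, chr14:20343385-20343634, plus strand: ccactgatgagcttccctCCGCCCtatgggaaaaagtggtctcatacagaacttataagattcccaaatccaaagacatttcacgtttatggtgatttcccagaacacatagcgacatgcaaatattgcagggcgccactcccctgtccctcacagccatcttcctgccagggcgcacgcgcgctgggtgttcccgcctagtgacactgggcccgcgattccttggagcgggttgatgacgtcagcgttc
The PARP1 window had 70.4% G or C, 26 CpG pairs and 2 GC boxes, and that of PARP2 had 54.4%, 14 CpG pairs and 1 GC box. The median over 35116 RefSeq windows of the same length was 58.0% and 11 CpG pairs. RefSeq windows were found for 8 of the 10 members, with more than 1 window for PARP8. Of these members, 6 held the GC box on either strand in at least 1 window. Of all windows 42.6% held it, a share per window and not per gene, so it is not a like measure. None of the 8 held TATAAA on either strand, which 10.7% of all windows held. These matches describe letters in the windows and are not evidence of binding.

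The levels of different members were compared per length, as RPKM, counts scaled to gene length and library size. The counts table holds no gene lengths, so lengths came from GENCODE release 44, either as the merged exons of all isoforms or as the longest coding transcript. The choice matters most for PARP1, whose merged exons span 18399 bases against 3978 for the longest coding transcript.

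PARP1 had the highest level of the family on both scales, with 31.0 ± 0.424 RPKM per merged exon length and 144 ± 1.96 RPKM per coding transcript (SD over 6 samples). On the coding transcript scale PARP1 was above 97.4% of the protein-coding genes tested. PARP2 was next on that scale with 39.5 ± 0.960 RPKM, followed by PARP4 with 26.6 ± 0.979 RPKM. Per merged exon length the pair changed places, with 23.9 ± 0.881 RPKM for PARP4 and 19.3 ± 0.468 RPKM for PARP2. PARP3, the other enzyme that acts at breaks, stood lower, at 10.2 ± 0.544 RPKM per coding transcript.

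**Figure D1:**
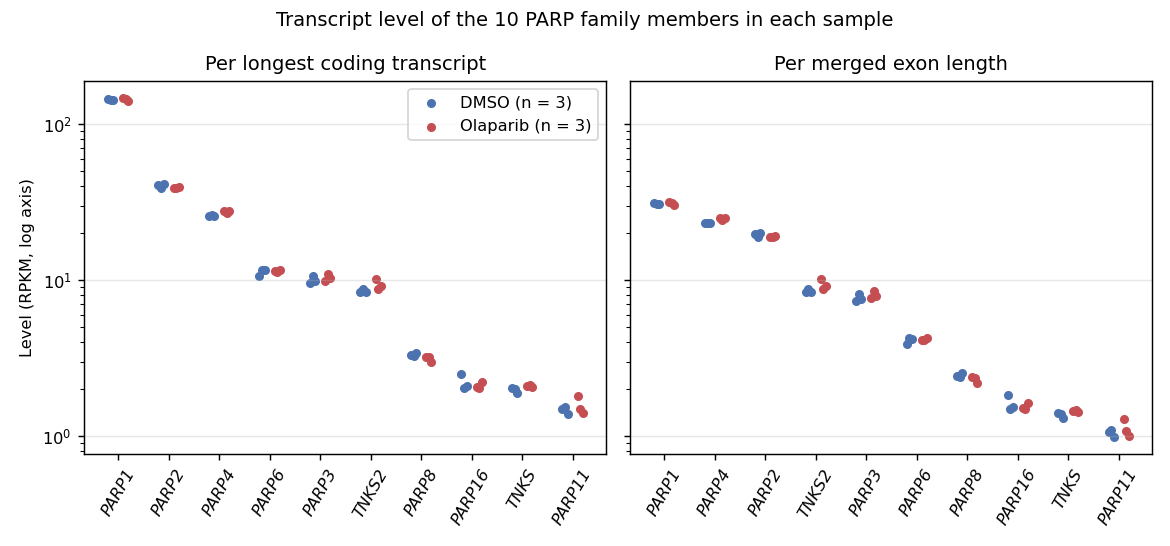
Level of each member in every sample (RPKM, log axis), per longest coding transcript at left and per merged exon length at right, with 3 DMSO samples in blue and 3 Olaparib samples in red. PARP1 is highest and PARP11 lowest on both scales, and the samples of both conditions lie close together for every member.

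PARP6 (11.4 ± 0.357 RPKM per coding transcript), PARP3 and TNKS2 (8.95 ± 0.685 RPKM) formed a middle tier. Within that tier the ranges over the 6 samples overlapped between PARP6 and PARP3 and between PARP3 and TNKS2. Compared within each library, PARP6 was above PARP3 in every one. PARP3 and TNKS2 changed order in Olaparib replicate 1, with 9.91 RPKM for PARP3 against 10.2 RPKM for TNKS2. Below them came PARP8 (3.22 ± 0.151 RPKM), PARP16 (2.16 ± 0.177 RPKM), TNKS (2.04 ± 0.0886 RPKM) and PARP11 (1.52 ± 0.152 RPKM). The ranges of PARP16 and TNKS overlapped too, so the ranges were apart in 6 of the 9 steps in this order. From PARP1 to PARP11 the level fell 94.7-fold per coding transcript and 28.5-fold per merged exon length. Per merged exon length the ranges were apart in 8 of 9 steps. The exception was TNKS2 over PARP3, although TNKS2 was above PARP3 within every library. Of the 10 members, 6 held the same rank on both scales.

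Measured per coding transcript, PARP1 supplied 57.8% ± 0.254 of the summed level of the 10 members after DMSO and 57.4% ± 0.515 after Olaparib (SD, n = 3 each). With merged exon lengths its share was 30.8% ± 0.194 after DMSO and 30.2% ± 0.411 after Olaparib. On the first scale the share was 57.8%, 57.7% and 56.9% in the Olaparib samples and 58.1%, 57.8% and 57.6% in the DMSO samples, and the groups overlapped. With merged exon lengths they did not overlap, at 29.8% to 30.5% after Olaparib against 30.7% to 31.0% after DMSO. PARP1 and PARP2 together made up 73.0% ± 0.295 after Olaparib and 74.0% ± 0.458 after DMSO. The groups did not overlap in this sum, at 72.7% to 73.3% against 73.5% to 74.3%, nor with merged exon lengths, at 48.5% to 49.1% against 49.5% to 50.7%. A share also depends on the other members. With merged exon lengths the summed level was 102 to 104 RPKM after Olaparib and 100 to 101 RPKM after DMSO. The levels of PARP1 and of PARP2 themselves overlapped between the groups. No test was made of either share.

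For the change after Olaparib, edgeR's quasi-likelihood test called none of the 10 members at an adjusted p under 0.05, 0 higher and 0 lower. Over all genes tested, 3.36% were called, 2.15% higher and 1.21% lower. DESeq2 and limma voom also called 0 members. At an unadjusted p under 0.05, 2 members passed (TNKS2 and PARP4), where 14.8% of all genes did. At an adjusted p under 0.1 only TNKS2 passed in edgeR, where 4.91% of all genes did. In DESeq2 PARP4 passed that limit (adjusted p = 0.0946) and TNKS2 did not (adjusted p = 0.110). The median log2 fold change of the members was 0.039, with 7 above 0 and 3 below, against a median of -0.0042 over all genes, of which 48.6% were above 0. The 3 Olaparib samples lay on one side of the 3 DMSO samples in 4 members (TNKS, TNKS2 and PARP4 above, PARP8 below), and in 19.3% of all genes (10.0% with Olaparib above and 9.29% with DMSO above). The 95% intervals from this fit stayed within 1.2-fold in either direction for 9 members, and the exception was PARP11.

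**Figure D2:**
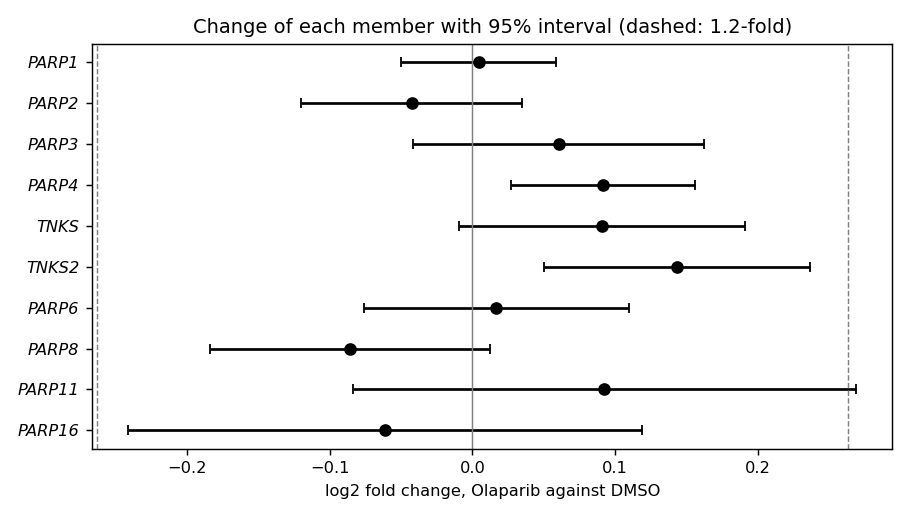
Log2 fold change of each member after Olaparib against DMSO (points, edgeR, n = 3 each) with its 95% interval (bars) and the 1.2-fold limits (dashed lines). Only the intervals of TNKS2 and PARP4 lie off 0, and only that of PARP11 crosses a dashed line.

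PARP1 (ENSG00000143799, chromosome 1, 226360210 to 226408154, minus strand, GRCh38), the main sensor of single-strand breaks, had 21826, 21466 and 20943 normalized counts after Olaparib. After DMSO it had 21471, 21291 and 21275. The DMSO samples lay inside the range of the Olaparib samples. The 95% interval of the change ran from -3.39% to 4.15%, and the estimate of 0.0045 on the log2 scale became -0.0077 without Olaparib replicate 1.

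PARP2 (ENSG00000129484, chromosome 14, 20343615 to 20357904, plus strand), the partner enzyme at breaks, had 2867, 2887 and 2904 normalized counts in the Olaparib samples and 2990, 2883 and 3044 in the DMSO samples. The groups overlapped through DMSO replicate 2 alone. The estimate was -0.043 on the log2 scale, with a standard error of 0.038 (edgeR adjusted p = 0.674) and an interval of -7.97% to 2.44%. It was -0.064 without DMSO replicate 2 and -0.027 without DMSO replicate 3. A stretch of 97 bases, 2.39% of the merged exons of PARP2, overlaps exons of 2 long noncoding RNAs on the opposite strand. One of them, ENSG00000259001, had 467 counts in Olaparib replicate 3 and 871 in DMSO replicate 1, but 16 to 32 in the other 4 libraries. Whether reads of this RNA entered the PARP2 counts was not tested, and without both libraries the log2 fold change of PARP2 was -0.045.

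PARP3 (ENSG00000041880, chromosome 3, 51942345 to 51948867, plus strand), which takes part in the joining of double-strand breaks, had 917, 1018 and 950 normalized counts in the Olaparib samples and 880, 978 and 907 in the DMSO samples. The groups overlapped, and in each of them replicate 2 was the highest. The estimate was 0.060 on the log2 scale, with a standard error of 0.050 (edgeR adjusted p = 0.641) and an interval of -2.86% to 11.9%. It was 0.019 without Olaparib replicate 2 and 0.10 without DMSO replicate 2. The ratio of PARP1 to PARP2 per coding transcript was 3.69 ± 0.0996 after Olaparib and 3.58 ± 0.0986 after DMSO (n = 3 each). The log2 ratio differed by 0.046 (exact permutation test, two-sided, p = 0.2, adjusted over 2 ratios 0.4), and 3 samples against 3 cannot give a p below 0.1.

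**Figure D3:**
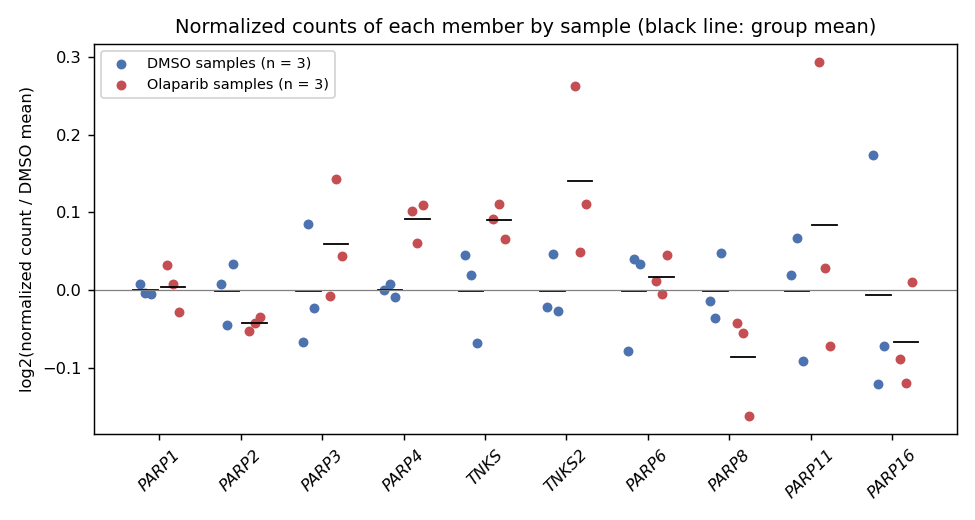
Log2 of the normalized count over the DMSO mean for each member, with 3 DMSO samples in blue, 3 Olaparib samples in red and black lines at the group means. The red points lie above the blue ones in PARP4, TNKS and TNKS2 and below them in PARP8, and the groups overlap in the other 6 members.

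Among the members, TNKS2 had the largest estimate. TNKS2 (ENSG00000107854, chromosome 10, 91798426 to 91865475, plus strand), a tankyrase that marks AXIN and other partners for degradation, had 2383, 2056 and 2145 normalized counts after Olaparib. After DMSO it had 1957, 2051 and 1951. Every Olaparib sample was above every DMSO sample, but Olaparib replicate 2 exceeded DMSO replicate 2 by few counts. On the log2 scale the estimate was 0.14 with a standard error of 0.046 (10.5%, interval 3.56% to 17.8%), and edgeR gave it an adjusted p of 0.0816. That estimate depended on Olaparib replicate 1, the highest sample: without it the log2 fold change was 0.082 with an adjusted p of 0.369 in the same edgeR test. Leaving out Olaparib replicate 2 instead gave 0.19 (edgeR adjusted p = 0.0300). Over 15 alternatives the adjusted p of TNKS2 ran from 0.0300 to 0.369 and was under 0.05 in 4, among them the edgeR fits with robust dispersion (0.0431) and with no filter on low counts (0.0328).

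The other tankyrase, TNKS (ENSG00000173273, chromosome 8, 9555912 to 9782346, plus strand), stood at 2.04 RPKM per coding transcript against 8.95 RPKM for TNKS2. It had 758, 768 and 745 normalized counts in the Olaparib samples and 734, 721 and 679 in the DMSO samples, with no overlap. The estimate was 0.091 on the log2 scale, with a standard error of 0.049 (edgeR adjusted p = 0.403) and an interval of -0.640% to 14.1%, and was 0.056 without DMSO replicate 3. The ratio of TNKS to TNKS2 was 0.225 ± 0.0180 after Olaparib and 0.232 ± 0.00957 after DMSO (n = 3 each). This was a difference of -0.050 in the log2 ratio (exact permutation test, two-sided, p = 0.4, adjusted p = 0.4), which became 0.0092 without Olaparib replicate 1.

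PARP4 (ENSG00000102699, chromosome 13, 24420931 to 24512778, minus strand) encodes the PARP of the vault particle, a large ribonucleoprotein of the cytoplasm. It had 5631, 5472 and 5661 normalized counts in the Olaparib samples and 5248, 5273 and 5216 in the DMSO samples. The DMSO samples differed by little, and all Olaparib samples lay above them. The estimate was 0.091 on the log2 scale, with a standard error of 0.032 (edgeR adjusted p = 0.117), which is 6.54% with an interval of 1.90% to 11.4%. Over 15 alternatives the adjusted p of PARP4 ran from 0.0338 to 0.481, both from edgeR fits, and was under 0.05 in 1. The vault proteins MVP, which forms the shell, and TEP1 had log2 fold changes of -0.041 and -0.048, with adjusted p values of 0.608 and 0.682 in edgeR.

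Among PARP6, PARP8, PARP11 and PARP16, which add single ADP-ribose units, the groups were separate in PARP8 alone. PARP8 (ENSG00000151883, chromosome 5, 50665899 to 50846519, plus strand) had 902, 894 and 830 normalized counts in the Olaparib samples and 920, 906 and 960 in the DMSO samples. The estimate was -0.086 on the log2 scale, with a standard error of 0.048 (edgeR adjusted p = 0.427) and an interval of -12.0% to 0.844%, and was -0.051 without Olaparib replicate 3. PARP6 (ENSG00000137817, chromosome 15, 72241181 to 72272999, minus strand), a close relative of PARP8, had 1187, 1173 and 1215 normalized counts in the Olaparib samples and 1116, 1211 and 1206 in the DMSO samples. The PARP6 groups overlapped, and DMSO replicate 1 was the lowest of the 6 samples. Its log2 fold change of 0.017 had an interval of -5.14% to 7.90%, and became -0.018 without DMSO replicate 1.

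PARP11 and PARP16 were the members with the fewest counts. PARP11 (ENSG00000111224, chromosome 12, 3791047 to 3873448, minus strand), a mono(ADP-ribosyl) transferase of the nuclear envelope, had 300, 249 and 233 normalized counts in the Olaparib samples and 248, 256 and 229 in the DMSO samples. Its estimate of 0.093 (log2) rested on Olaparib replicate 1, the highest sample, and was -0.018 without it. PARP16 (ENSG00000138617, chromosome 15, 65234460 to 65300618, minus strand) is anchored in the endoplasmic reticulum membrane, where it modifies the stress sensors EIF2AK3 (PERK) and ERN1 (IRE1). It had 213, 208 and 228 normalized counts in the Olaparib samples and 255, 208 and 215 in the DMSO samples, with overlapping groups, and its log2 fold change of -0.061 became 0.033 without DMSO replicate 1. The intervals were -5.65% to 20.5% for PARP11 and -15.4% to 8.56% for PARP16. EIF2AK3 had a log2 fold change of 0.024 and ERN1 one of -0.053, with adjusted p values of 0.875 and 0.803 in edgeR.

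The intervals were narrowest for PARP1, which had the most counts, and widest for PARP11 and PARP16, which had the fewest. Between these the order by width was not strictly that by counts. PARP1 had 21375 counts per sample on average, for which counting error alone gives a coefficient of variation of 0.684%. For PARP16, with 221 counts, it gives 6.73%, and for PARP11, with 252, it gives 6.30%. The observed variation between replicates was above the counting error in 12 of 20 member and group combinations. It was highest for PARP11 after Olaparib (13.4%), PARP16 after DMSO (11.2%) and TNKS2 after Olaparib (7.70%). For TNKS2, counting error alone gives 2.19%.

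**Figure D4:**
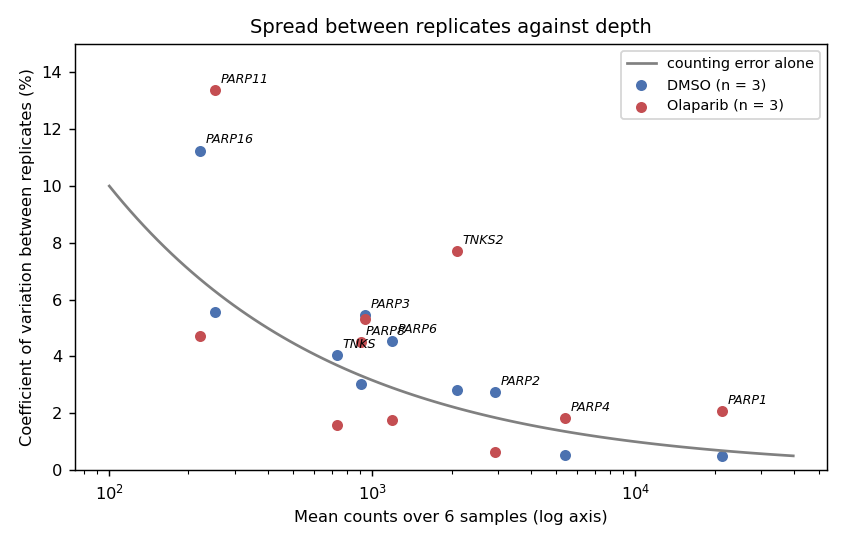
Coefficient of variation between the 3 replicates of each group (percent) against the mean count over 6 samples (log axis), with the variation that counting error alone gives as a grey line. PARP11 and TNKS2 after Olaparib and PARP16 after DMSO lie farthest above the line.

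Reads from near-identical copies could enter the counts of a member. The pseudogenes PARP1P1 and PARP1P2 had 2 to 10 and 0 to 1 counts per library, and PARP4P2 and PARP4P3 had 0 to 3 and 0. For 7 of the 10 members no exon overlapped another annotated gene. For PARP6, 4.66% of the exonic bases overlap ENSG00000273025, a protein-coding gene on the same strand with 0 counts in every library. For PARP8, 1.59% overlap the antisense RNA ENSG00000289056, which is absent from the counts table, so its counts could not be checked.

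The profile of PARP1 over the 6 samples was compared with those of 6782 other genes with a mean of at least 1000 counts, as the root mean square difference of log2 CPM after centring each gene on its own mean. NEO1, a receptor for netrins, was nearest with a difference of 0.0046, followed by ABI2 with 0.0053 and MCCC2 with 0.0070, and the median over these genes was 0.047. Within the family, where no floor on counts was set, PARP2 was nearest, with 0.040, and PARP11 farthest, with 0.11. PARP11 and PARP16, the next farthest, had means of only 252 and 221 counts, so these distances are not like those of the 6782 genes. The 6 samples share 1 normalization, and small differences are found most readily among genes that vary little.

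The remaining PARP genes, most of which are known as interferon-responsive, gave other values in the same fit. Of these 7 genes, 4 were called higher and 0 lower, against 2.15% and 1.21% of all genes, and the median log2 fold change was 0.17. The estimates of 5 were above 0 and those of 2, TIPARP and PARP15, below. PARP14 gave the largest positive log2 fold change of the list, 0.37 with a standard error of 0.048 and an adjusted p of 3.9e-06 in edgeR. For PARP9, PARP10 and PARP12 it was 0.31, 0.22 and 0.17, with adjusted p values of 0.00152, 0.00830 and 0.0261 in edgeR. PARP15 had at most 3 counts in any library, and its log2 fold change was -0.43 with a standard error of 0.80. No test of the difference between these genes and the 10 members was made.

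Genes that act with the members were described by lists, some of which share XRCC1 or RNF146. Of 11 genes for the ADP-ribose cofactor, erasers and readers, edgeR called 0, and the median log2 fold change was 0.0023. In this list 2 genes (ADPRS and RNF146) had an unadjusted p under 0.05, against 14.8% of all genes tested. HPF1, which directs PARP1 and PARP2 to serine residues, stood at -0.062 on the log2 scale (edgeR adjusted p = 0.663), and PARG, which cleaves the chains, at -0.046 (edgeR adjusted p = 0.713). Of 9 partners in single-strand break repair, 0 were called by edgeR and 0 had an unadjusted p under 0.05. The scaffold XRCC1, recruited by ADP-ribose chains, stood at 0.019 on the log2 scale (edgeR adjusted p = 0.903).

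Of 14 genes for tankyrase-binding proteins, edgeR called 0 and 3 (SH3BP2, GMDS and RNF146) had an unadjusted p under 0.05, against 14.8% of all genes. RNF146, the ubiquitin ligase that reads chains made by tankyrases, had 1098 ± 7.30 normalized counts in the Olaparib samples and 1180 ± 51.5 in the DMSO samples (SD, n = 3 each). The RNF146 groups did not overlap, as in 19.3% of all genes, and the log2 fold change was -0.10 (adjusted p = 0.256 in edgeR). The tankyrase partner TNKS1BP1 stood at -0.062 on the log2 scale (edgeR adjusted p = 0.415). Of 6 genes of NAD supply, 0 were called by edgeR and 2 (NMNAT1 and NMNAT2) had an unadjusted p under 0.05, against 14.8% of all genes. On the log2 scale they stood at 0.14 and 0.18 (edgeR adjusted p = 0.140 and 0.322). NMNAT1 is the nuclear enzyme that makes NAD, the substrate of the family.

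**Figure D5:**
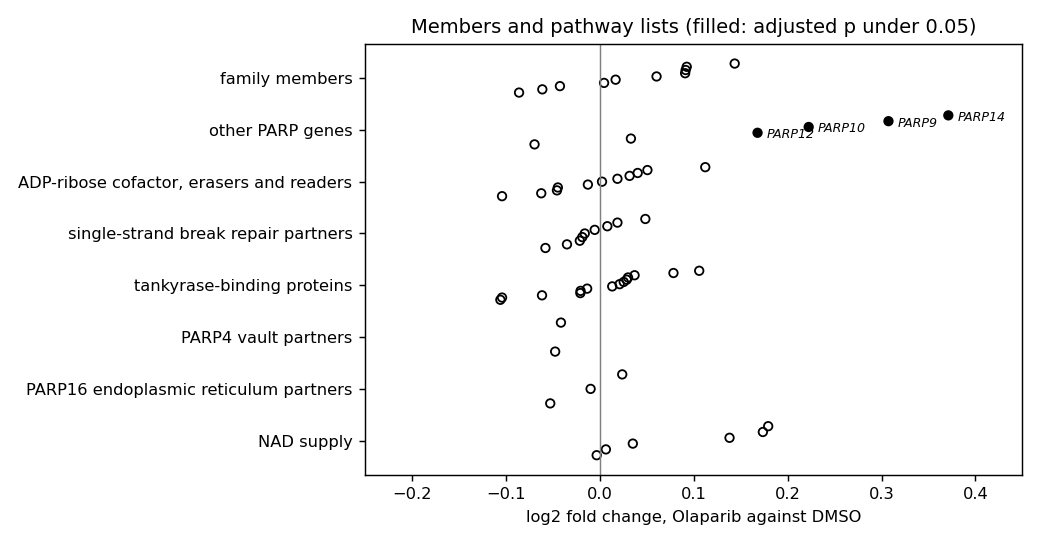
Log2 fold change of each gene in the family and in 7 lists of related genes, with filled circles for an adjusted p under 0.05 (edgeR, n = 3 each). Only PARP9, PARP10, PARP12 and PARP14 are filled, and PARP15 is not drawn because it had at most 3 counts in any library.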

How the data were processed

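The authors deposited raw read counts per gene for the 6 samples, as whole numbers without normalization. According to the study's methods, adapters were trimmed with Trimmomatic, reads were mapped to GRCh38 with STAR, PCR duplicates were identified with Picard and reads were assigned with featureCounts. Whether duplicates were removed, and the strand setting of the counting, are not given in the sources used here. The kit was stranded.

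Genes with more than 10 counts in total were kept, scaled by TMM and compared by the quasi-likelihood test of edgeR. P values were adjusted by Benjamini-Hochberg over all genes, and genes were called at an adjusted p under 0.05. Every adjusted p of a gene comes from such a fit, except where DESeq2 or an alternative setting is named. Normalized counts are counts at the mean TMM library size. Intervals (95%) come from the same fit, while floors and counting errors cover counting error only. The fit was tested on simulated data. Names, positions and lengths came from GENCODE release 44 on GRCh38, which holds 81.95% of the listed identifiers. Lengths were planned from the counts table, which holds none. Replicates of a group differed by more than sampling noise (chi-square per degree of freedom 1.77 to 4.00), and all were counted.

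The 10 members and the lists were chosen with earlier results of these data known. All members were named, with list genes that were called and direct partners of members. The lists came from general knowledge. PARP1's 3 nearest genes were named by the stated distance. Alternatives covered tests, scalings, filters, call rules, lengths, a replicate block and leaving out samples. Versions were edgeR 4.0.16, DESeq2 1.42.0, limma 3.58.1 (in R 4.3.3) and scipy 1.17.1. Protein sequences were not analysed here.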

Additional observations from a re-analysis of the deposited data

How the results depend on the processing

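No member was called lower under any alternative run, including DESeq2, limma voom and an adjusted p under 0.1. The count of members called higher was 0 in the edgeR fit and 1 (TNKS2) with robust dispersion (log2 fold change 0.14, adjusted p = 0.0431), with no filter on low counts (0.14, adjusted p = 0.0328) and at an adjusted p under 0.1. With the replicate number as a block it was 2: TNKS2 (0.14, adjusted p = 0.0415) and PARP4 (0.091, adjusted p = 0.0338), all from edgeR. The correlations of same-numbered deviations were -0.20, 0.26 and -0.32 for replicates 1, 2 and 3. They cannot decide whether the numbers pair the samples, because deviations within a group of 3 depend on one another. The block moved the calls over all genes from 730 to 1322. The cause of these differences was not tested. With each sample left out in turn, the count higher was 0 to 1. The median of the members was 0.0068 to 0.066, with the lowest value without Olaparib replicate 1 and the highest without DMSO replicate 2. The log2 fold change was -0.0077 to 0.018 for PARP1, -0.064 to -0.027 for PARP2, 0.019 to 0.10 for PARP3, 0.080 to 0.11 for PARP4, 0.056 to 0.12 for TNKS, -0.11 to -0.051 for PARP8, 0.082 to 0.19 for TNKS2, -0.018 to 0.037 for PARP6, -0.018 to 0.17 for PARP11 and -0.12 to 0.033 for PARP16. The log2 ratio of TNKS to TNKS2 differed by -0.11 to 0.0092. With upper quartile scaling PARP1 turned to -0.0047 and the median of the members was 0.030, against 0.039 with TMM. Without both Olaparib replicate 3 and DMSO replicate 1, an alternative chosen after seeing the data, the median was 0.029, PARP6 turned to -0.036 and 0 members were called. With coding transcript lengths PARP1's share of the summed level was 57.6% in place of 30.5%, and 6 of 10 ranks were kept. Of 227 comparisons of a result with an alternative, 202 kept direction and side of the threshold or moved by less than the spread. PARP11 and PARP16 had the fewest counts and the widest intervals.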

Other observations

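Libraries with many counts of ENSG00000259001, the long noncoding RNA opposite PARP2, also had more counts of small RNA classes. Over 4440 annotated genes of these classes (small nuclear, nucleolar and Cajal body RNAs, ribosomal RNA, ribozymes and miscellaneous RNAs outside the mitochondrial genome), the share of all counts was 0.00786% in Olaparib replicate 3 and 0.00982% in DMSO replicate 1. In the other 4 libraries it was 0.00703% to 0.00704%. Their part in the values of the members was not tested.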
